A study of Mus musculus with 12 samples.

Results

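The genes described are Magohb and the other core genes of the exon junction complex, Magoh, Rbm8a, Eif4a3 and Casc3. They were found as the 7 deposited transcripts whose RefSeq accession maps to one of these 5 symbols, out of 36285 transcripts and 24274 genes in all, and all 5 genes passed the filter on low values. Magohb was chosen by its FPKM, which was low in islet cells of Y16A origin against spleen, so its values there are given as a description with no test. The other 4 genes were added as its partners in the complex.

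RNA was measured in 12 libraries, 3 in each of 4 groups: islet Y16A, islet WT, spleen Y16A and spleen WT. The cells were CD4 T cells expanded with an insulin peptide, grown from the spleens of female mice of 6 to 8 weeks that carried either the NOD.InsY16A transgene (Y16A origin) or no transgene (NOD, WT origin). All donors were immunized with the insulin peptide C19A, and the cells were cultured for 2 weeks with 10 µM peptide, which the design text names InsB9-23. Purified cells (over 95% pure, under 1% Foxp3+) were transferred, 5000000 per mouse, into NOD.scid females of 8 to 10 weeks, which lack T and B cells of their own but keep other blood cells. Each of 6 recipients gave 1 islet library (titled pancreas) and 1 spleen library. In the labels' genotype entry all islet libraries are NOD and all spleen libraries NOD.Y16A, in conflict with the titles and the design text; groups follow the titles. The labels name no sort of the recovered cells. Whether each recipient got cells from a separate culture is not given, so the p-values measure the spread between recipients.

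The exon junction complex is a group of proteins that the splicing machinery leaves on a spliced mRNA just upstream of each junction between exons. EIF4A3, an RNA helicase of the DEAD-box family, clamps the RNA. The heterodimer of a MAGO protein and RBM8A (also called Y14) locks that clamp, and CASC3 (MLN51 or Barentsz) joins it. The complex marks spliced mRNA for export and translation, and when it lies downstream of a stop codon it triggers nonsense-mediated decay. Mammals carry a pair of MAGO genes, Magoh and Magohb, whose proteins can each pair with RBM8A.

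The coding sequences of the MAGO copies are shown because they decide whether reads can tell the copies apart. The first 150 bases from the start codon follow, in the transcripts that the deposited matrix lists at values above 0, with capitals at bases that differ from the other copy or have no partner in it.
Magohb: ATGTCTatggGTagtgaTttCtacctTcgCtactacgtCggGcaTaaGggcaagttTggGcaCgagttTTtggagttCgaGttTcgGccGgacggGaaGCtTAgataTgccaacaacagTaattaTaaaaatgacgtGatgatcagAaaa
Magoh: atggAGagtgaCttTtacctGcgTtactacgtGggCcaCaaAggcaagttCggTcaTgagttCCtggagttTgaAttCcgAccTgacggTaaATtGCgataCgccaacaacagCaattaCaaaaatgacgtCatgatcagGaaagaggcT
Over the whole aligned coding sequence of 441 bases the copies differed at 84 positions, an identity of 81.0%. The encoded proteins, by contrast, were identical at 145 of 146 aligned residues, with 148 residues in MAGOHB and 146 in MAGOH. No run of 25 bases was shared between the transcripts, of 743 such windows in Magohb and 668 in Magoh, so a read of that length or more that matches without error falls on 1 copy only. The sequences are those of GENCODE M21 transcripts matched to the RefSeq accessions.

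In RefSeq, Magohb lies on chromosome 6 at 131284389 to 131293244 (GRCm38, minus strand, 5 exons) and Magoh on chromosome 4 at 107879755 to 107887424 (plus strand, 5 exons). Rbm8a lies on chromosome 3 at 96629928 to 96633791 (plus strand, 6 exons). Eif4a3 spans 119288363 to 119300043 (minus strand, 12 exons) and Casc3 spans 98809808 to 98833807 (plus strand, 14 exons), both on chromosome 11. The submitters' notes name mm9, but the authors' deposited table gives the same start and end as GRCm38 for all of these except Casc3, whose entry there begins further upstream. The matrix lists NM_025564 for Magohb and a second accession, NM_001327860, which has a shorter coding sequence of 306 bases before the stop codon, against 444 for NM_025564. The second one was at 0 in all 12 libraries, so the gene value of Magohb is that of NM_025564, a transcript of 767 bases. Of the windows of 50 bases in NM_001327860, 55.7% also occur in the overlapping processed pseudogene Gm44958. Gene values are FPKM, fragments per kilobase of transcript scaled to the mapped fragments of a library, summed over a gene's transcripts; they allow comparison between genes per length.

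The libraries held about 4400000 to 8430000 mapped fragments. This is a rough estimate from the steps between low FPKM values, which were only weakly regular. Across genes the log2 values of replicates correlated at 0.828 to 0.901 (genes are not independent replicates). The 7 of 10 listed T cell markers with entries summed to 2740 to 3537 FPKM in islet Y16A, 2212 to 3106 in islet WT, 1875 to 2437 in spleen Y16A and 1637 to 2455 in spleen WT, while B cell markers stayed under 8 FPKM (Pax5 at 0 in all). Acinar and duct markers summed to 1372 to 3667 FPKM in islet Y16A and 1504 to 5364 in islet WT. The duct marker Krt19 was at 2.24 FPKM or less in all libraries, and Amy2a5 at 0. In spleen the list summed to 2.65 to 8.96 FPKM for Y16A origin and 2.16 to 5.04 for WT origin. Neutrophil markers ran the other way, at 2.65 to 9.09 FPKM in islet Y16A and 0.848 to 24.0 in islet WT, against 95.1 to 186 in spleen Y16A and 105 to 244 in spleen WT. Erythroid markers summed to 5.13 to 35.5 FPKM in islet Y16A and 5.67 to 124 in islet WT, against 113 to 2376 in spleen Y16A and 544 to 1473 in spleen WT. Macrophage and monocyte markers summed to 127 to 199 FPKM in islet Y16A and 111 to 249 in islet WT. In spleen they summed to 238 to 716 FPKM for Y16A origin and 284 to 354 for WT origin. Of that list only Tyrobp (0 to 5.82 FPKM in islet, 17.2 to 70.0 in spleen) did not overlap between tissues. Fcer1g reached 134 FPKM in islet and 528 in spleen, and the other members, such as Csf1r, Cd68 and Ctss, overlapped. Endocrine markers (Ppy at 0 in all) summed to 0.396 to 54.2 FPKM in islet Y16A and 26.1 to 1081 in islet WT, against 1.08 to 8.82 in spleen Y16A and 0 to 1.04 in spleen WT. The part of RNA from these other cells in the islet against spleen values of the 5 genes was not tested, and in such mixed libraries fewer cells of a type and less RNA per cell cannot be told apart.

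Magoh was the most abundant of the 5 genes in 12 of 12 libraries, with a mean of 119 FPKM and a range of 76.9 to 167. Eif4a3 came second in 11 of 12, with a mean of 29.9 and a range of 13.9 to 49.1 FPKM. Magohb ranked 3 of 5 in 8 of 12 libraries, with a range of 0.362 to 54.1 FPKM and a median of 17.7. Its span was the widest of the 5 as a ratio of highest to lowest, which follows from the islet Y16A values that led to its choice. In the islet WT and spleen libraries Magohb ran from 12.8 to 54.1 FPKM, a smaller ratio than that of Rbm8a there (1.42 to 9.73). Rbm8a ranked 4 of 5 in 8 of 12 (mean 6.67, range 1.42 to 9.73 FPKM) and Casc3 ranked 5 of 5 in 9 of 12 (mean 3.78, range 1.32 to 5.35 FPKM). The ranges of neighbours overlap for Eif4a3 and Magohb, for Magohb and Rbm8a, and for Rbm8a and Casc3, so only the first place of Magoh holds in every library.

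**Figure D1:**
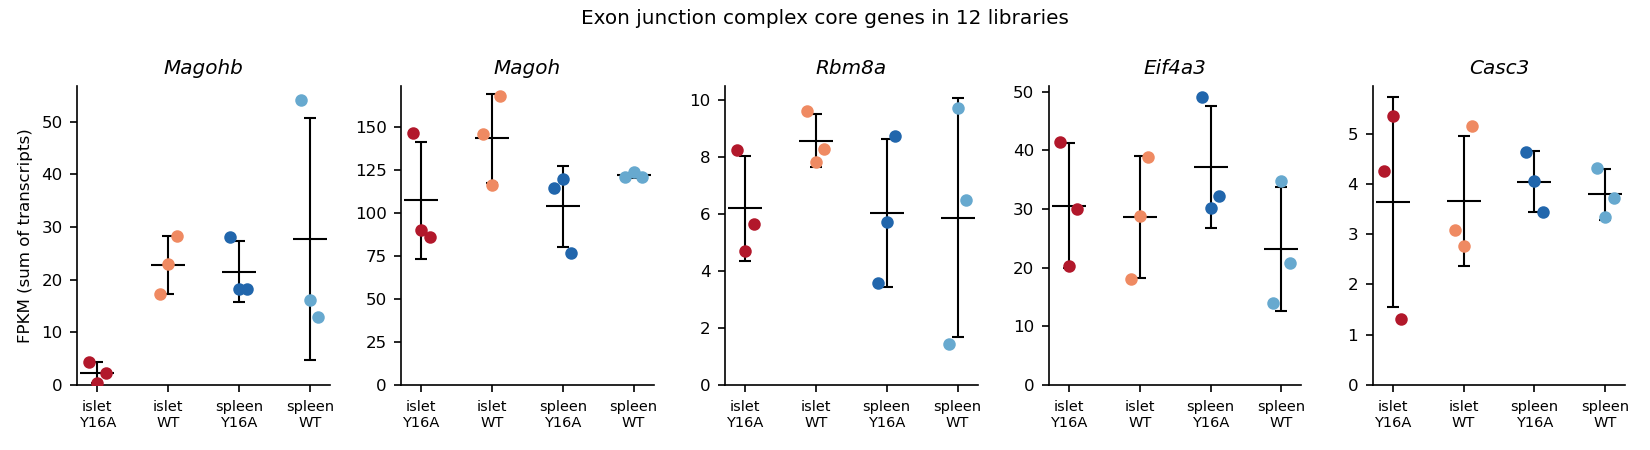
FPKM of each gene (vertical axes, separate scales starting at 0) in the 12 libraries, grouped as islet Y16A, islet WT, spleen Y16A and spleen WT; points are libraries and bars are the mean ± SD of 3. The 3 islet Y16A values of Magohb (0.362 to 4.30) lie below the other 9 (12.8 to 54.1), while the groups of the other 4 genes overlap in most pairs.

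Magohb was at 4.30, 0.362 and 2.37 FPKM in islet Y16A libraries 1, 2 and 3. In the islet WT libraries it was at 17.3, 22.9 and 28.3 FPKM. The spleen values were 28.1, 18.2 and 18.2 FPKM for Y16A origin and 54.1, 16.1 and 12.8 FPKM for WT origin. The islet Y16A values are thus the lowest 3 of 12 and do not overlap any other group (18.3% of genes did not overlap between islet and spleen of Y16A origin, 3.69% with islet lower, and 10.0% between Y16A and WT origin in islet, 2.26% with Y16A lower), whereas islet WT, spleen Y16A and spleen WT overlap one another. By the rough estimate of depth, the islet Y16A values correspond to about 18.3, 1.87 and 15.3 fragments, against 53.0 to 235 in the other 9 libraries. On that estimate the value of islet Y16A 2 lies below the level of 3 fragments there (0.581 FPKM). The mean was 2.34 ± 1.97 FPKM in islet Y16A and 21.5 ± 5.75 in spleen Y16A (SD, n = 3 each), 9.18-fold lower in islet, and it was 9.75-fold lower in islet Y16A than in islet WT (22.8 ± 5.54).

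Changes below are differences of log2(FPKM + 1) with their standard error (SE) from a limma fit over 10044 genes, relative to the median gene with a mean above 5 FPKM. That median differed by 0.32 (islet against spleen, Y16A), 0.16 (the same, WT), 0.26 (islet, Y16A against WT), 0.07 (spleen, Y16A against WT) and 0.16 (the difference of the islet against spleen changes). For islet against spleen in the mean of both origins it differed by 0.25. This last value was subtracted from the differences within recipients, for either origin. P-values were taken before that median was subtracted, are Benjamini-Hochberg adjusted over all genes, and a gene is called under 0.05. Intervals, in contrast, lie around the change after the subtraction and use 8 residual degrees of freedom. They are wider than intervals from the limma test itself would be. The pseudocount of 1 makes the change of a low gene look smaller.

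For islet against spleen of Y16A origin the log2 change of Magohb was -3.25 (SE 0.55). This is the comparison from which the gene was picked, so the value is a description. It was lower in islet than in spleen in 3 of 3 Y16A recipients, with log2 differences of -2.71 in Y16A-1, -4.06 in Y16A-2 and -2.75 in Y16A-3. The acinar and duct markers summed to 1372 to 3667 FPKM in islet Y16A and 2.65 to 8.96 in spleen Y16A, and their part in this difference was not tested. Among CD8 and NK cell markers, which summed to 1.39 to 6.54 FPKM in the other 11 libraries, islet Y16A 2 stood at 23.3, and this library also held the lowest Magohb value. Of that sum Cd8b1 gave 13.8 and Cd8a 7.66 FPKM, while Ncr1 was at 0, Klrb1c at 0.852 and Klrk1 at 0.952. Without islet Y16A 2 the log2 change of Magohb was -2.74, and the part of CD8 or NK cells was not tested.

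In the WT libraries, whose means do not enter that comparison, no difference of Magohb between tissues was called. The SE of the fit pools the spread of all groups, so the islet Y16A values still enter the error of this test. The mean was 22.8 ± 5.54 FPKM in islet WT and 27.7 ± 22.9 in spleen WT (SD, n = 3 each). The log2 change was -0.16 (SE 0.55, 95% interval -1.43 to 1.11, limma adjusted p = 1), in a comparison where 0.806% of genes were called. The direction rests on 1 library: without spleen WT 1, where Magohb was at 54.1 FPKM, it was 0.64 (adjusted p = 0.895). The islet minus spleen log2 difference was -1.84 in recipient WT-1, 0.24 in WT-2 and 0.84 in WT-3.

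Between origins the values of Magohb did not overlap in islet and overlapped in spleen. The log2 change of Y16A against WT was -3.27 (SE 0.55) in islet and -0.17 (SE 0.55) in spleen. The islet against spleen change of Y16A minus that of WT was -3.09 (SE 0.78). Islet or spleen Y16A libraries, whose comparison led to the choice of the gene, enter all 3 of these, so they are descriptions. The spleen value was 0.63 without spleen WT 1. Limma called 0 of 10044 genes in each of these 3 comparisons (0%), with 472, 521 and 430 genes at an unadjusted p under 0.05. With no difference anywhere, a fraction of about 0.05 of the 10044 genes would fall there, and all 3 counts lie near that fraction. In the authors' deposited table Magohb was at 7.41 FPKM in islet Y16A and 90.3 in islet WT, with a p-value of 0.209 and a q-value of 0.741, while 91 of its 9815 entries (0.927%) had a q-value under 0.05. That table is on another scale than the matrix, with values a median of 3.02 times the matrix mean in islet Y16A and 3.60 times in islet WT. Of all tested genes, 18 (0.179%) had their 3 islet Y16A values below the other 9 libraries, and in 4 of these the lowest other value was at least 2 times the highest islet Y16A value. Magohb (2.99 times) is among the 4, which follows from the low islet Y16A values that led to its choice. The others were 9830132P13Rik (mean 0.686 FPKM), Fcgrt (1.35), which encodes the neonatal Fc receptor, and Gm5766 (1.02).

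Magoh, the other MAGO copy, was at 146, 89.7 and 85.7 FPKM in islet Y16A and at 146, 116 and 167 in islet WT. In spleen it was at 114, 120 and 76.9 FPKM for Y16A origin and at 121, 123 and 121 for WT origin. The islet and spleen groups overlapped in both origins. The log2 change for islet against spleen was -0.29 in Y16A origin (SE 0.29, limma adjusted p = 0.980) and 0.06 in WT origin (SE 0.29, adjusted p = 0.925). Between origins in islet it was -0.70 (SE 0.29, adjusted p = 0.967); after median centring the unadjusted p was 0.0142 and the adjusted p 0.942. In spleen the 3 Y16A values lay below the 3 WT values, as a group difference without overlap did for 9.09% of genes in either direction and for 3.49% with Y16A lower, and the change of -0.33 (SE 0.29) was not called (adjusted p = 1). In the authors' deposited table Magoh had 315 FPKM in islet Y16A and 519 in islet WT, with a p-value of 0.0135 and a q-value of 0.522.

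Between the copies, the share of Magohb was lowest in the islet Y16A libraries, which follows from the values that led to its choice. Its share of the summed FPKM of both copies was 2.85%, 0.401% and 2.69% in islet Y16A and 10.6%, 16.4% and 14.5% in islet WT. In spleen the share was 19.8%, 13.2% and 19.1% for Y16A origin and 30.9%, 11.5% and 9.60% for WT origin. The group means were 1.98 ± 1.37% in islet Y16A, 13.8 ± 2.97% in islet WT, 17.4 ± 3.62% in spleen Y16A and 17.3 ± 11.8% in spleen WT (SD, n = 3 each). Within the WT libraries the mean islet minus spleen share was -3.50 percentage points (two-sided exact permutation p = 0.9; with 3 against 3 the smallest possible p is 0.1), and it was 3.28 points above it without spleen WT 1.

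**Figure D2:**
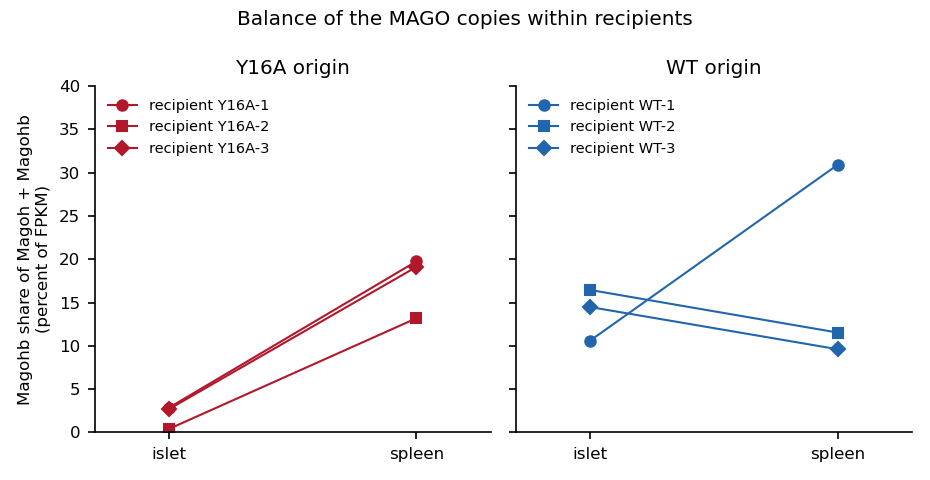
Share of Magohb in the summed FPKM of Magoh and Magohb (vertical axis, percent) in islet and spleen of each recipient, with Y16A origin in the first panel and WT origin in the second; lines join the libraries of 1 recipient. All 3 Y16A recipients stand at 0.401 to 2.85% in islet and 13.2 to 19.8% in spleen, while the lines of the WT recipients cross.

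Because Magoh made up most of the sum, the total of both copies varied less than Magohb did. It was 151, 90.1 and 88.1 FPKM in islet Y16A and 163, 139 and 196 in islet WT. In spleen it was 142, 138 and 95.1 FPKM for Y16A origin and 175, 139 and 134 for WT origin. The means were 109.6 ± 35.5 in islet Y16A and 125 ± 26.2 in spleen Y16A, and 166 ± 28.4 in islet WT and 149 ± 22.4 in spleen WT (SD, n = 3 each). The summed FPKM of islet Y16A thus overlapped with all 3 other groups.

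Rbm8a encodes the obligate partner of the MAGO proteins. It was at 8.23, 4.69 and 5.66 FPKM in islet Y16A and at 9.61, 7.83 and 8.27 in islet WT. The spleen values were 3.58, 5.73 and 8.75 FPKM for Y16A origin and 1.42, 9.73 and 6.47 for WT origin. The groups overlapped in each comparison of tissue or origin, and spleen WT 1, the library with the highest Magohb value, had the lowest Rbm8a value. The log2 change for islet against spleen was -0.25 in Y16A origin (SE 0.53, limma adjusted p = 0.975) and 0.56 in WT origin (SE 0.53, adjusted p = 0.796). The gene has 2 transcripts in the matrix, NM_001102407 and NM_025875, that share 97.9% of the windows of 50 bases in NM_025875. The share assigned to NM_001102407 ran from 0% in islet WT 3 and spleen WT 3 to 100% in spleen WT 1, so the split between them is uncertain and the sum is the value to read. A related gene, Rbm8a2, for which the matrix has no row, shares 7.89% of those windows.

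Eif4a3, the helicase that grips the RNA, was at 41.5, 20.3 and 30.0 FPKM in islet Y16A and at 18.0, 28.9 and 38.8 in islet WT. In spleen it was at 49.1, 30.1 and 32.2 FPKM for Y16A origin and at 13.9, 34.7 and 20.8 for WT origin. Both tissues and both origins overlapped. Its log2 change for islet against spleen was -0.62 in Y16A origin (SE 0.42, limma adjusted p = 0.867) and 0.16 in WT origin (SE 0.42, adjusted p = 0.922). Between origins in spleen it was 0.64 (SE 0.42, adjusted p = 0.997). Pseudogenes of Eif4a3 share up to 15.6% of its windows of 50 bases (Gm5576).

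Casc3, the member that joins the complex mainly in the cytoplasm, had the lowest mean of the 5 over the 12 libraries, although in islet Y16A its mean of 3.64 FPKM was above that of Magohb (2.34). It was at 4.25, 5.35 and 1.32 FPKM in islet Y16A and at 3.08, 2.77 and 5.15 in islet WT. The spleen values were 4.64, 4.05 and 3.45 FPKM for Y16A origin and 4.32, 3.33 and 3.71 for WT origin. The spleen values spread less than the islet values, and all groups overlapped. The log2 change for islet against spleen was -0.56 in Y16A origin (SE 0.48, limma adjusted p = 0.916) and -0.22 in WT origin (SE 0.48, adjusted p = 0.995). Its exons overlap those of the antisense gene Gm12359 by 494 bases and of Msl1 by 15 bases, and reads from these cannot be told apart where strand was not counted, which is not given in the sources used here.

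Limma called 0 of the 4 partners in any of the 6 comparisons fitted, at adjusted p of 0.729 to 1, where the share of all genes called was 0.806% for islet against spleen of WT origin, 1.15% for that of Y16A origin and 2.24% for the mean of both origins. The median log2 change of the 4 partners for islet against spleen of Y16A origin was -0.43 (range -0.62 to -0.25), against -0.09 over all genes tested, and for WT origin it was 0.11 (range -0.22 to 0.56), against -0.05. For Y16A against WT it was -0.52 in islet, against -0.06 over all genes, and 0.07 in spleen, against -0.01. The wide intervals, for example -1.58 to 0.34 for Eif4a3 in islet against spleen of Y16A origin, do not show that the partners were equal. Without the subtraction of the median gene, the islet against spleen change of Y16A origin was 0.03 for Magoh and 0.07 for Rbm8a, so the sign of these depends on the scaling.

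**Figure D3:**
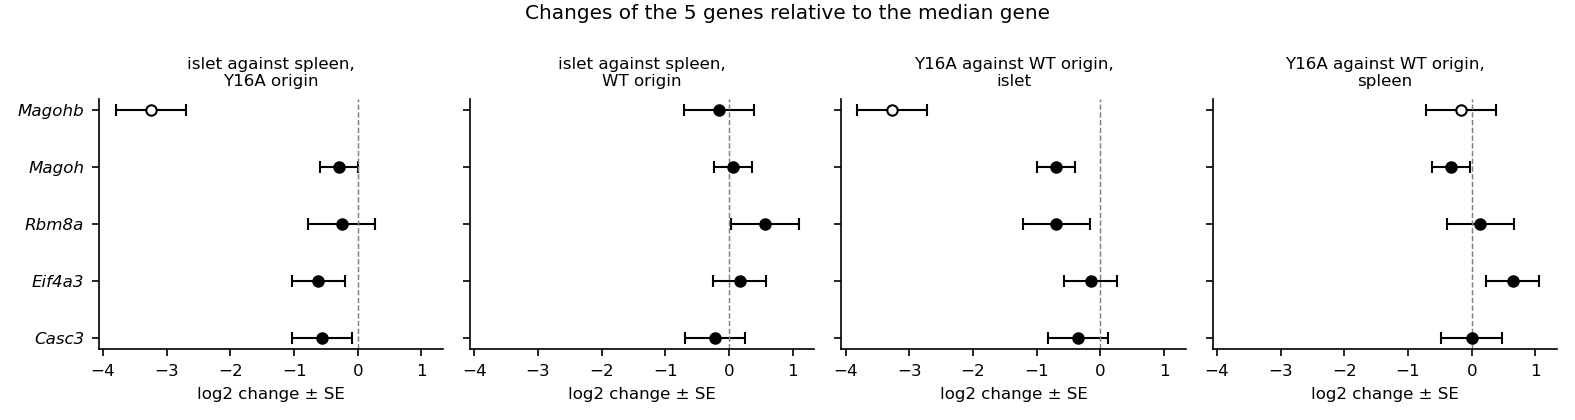
Log2 change ± SE of the 5 genes in 4 comparisons (horizontal axes, relative to the median gene; dashed line at 0), with the first-named group over the second; filled points were tested and open points are descriptions. Magohb lies at -3.25 for islet against spleen of Y16A origin and -3.27 for Y16A against WT in islet, and every other value lies between -0.70 and 0.64.

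Within recipients, the islet minus spleen difference relative to the median gene gave no call for the partners. Casc3 was lower in islet in 4 of 6 recipients, with a mean log2 difference of -0.40 ± 0.49 (SD, n = 6; two-sided exact sign-flip permutation p = 0.125, 0.5 adjusted over the 4 genes tested). Eif4a3 was lower in 4 of 6 (-0.23 ± 0.51, exact p = 0.312, adjusted 0.625). Magoh was lower in 3 of 6 (-0.12 ± 0.32, exact p = 0.5, adjusted 0.667) and Rbm8a in 3 of 6 (0.15 ± 1.02, exact p = 0.75, adjusted 0.75). The smallest p that 6 recipients allow is 0.0312. Magohb, not tested, was lower in islet in 4 of 6, with a mean of -1.71 ± 1.89.

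Genes that work next to the complex gave 0 calls in any of the 6 comparisons (39 tested of 41 in 5 lists). The share of all genes called was 0% to 2.24% in these comparisons, so a count of 0 of 39 lies near the background. The first list holds assembly and recycling factors: CWC22, the splicing factor that brings EIF4A3 to the spliceosome, the spliceosomal CWC27, the importin IPO13, which carries MAGO and RBM8A back to the nucleus, and PYM1, which takes the complex apart. Cwc22 averaged 2.20 ± 1.54 FPKM in islet Y16A and 1.02 ± 0.960 in spleen Y16A, and 2.18 ± 0.384 in islet WT and 0.0959 ± 0.0882 in spleen WT (SD, n = 3 each). Its log2 change for islet against spleen was 0.37 in Y16A origin (limma adjusted p = 0.688) and 1.38 in WT origin (adjusted p = 0.274). In WT origin the islet values of Cwc22 (1.94 to 2.63 FPKM) lay above the spleen values (0 to 0.173), as groups without overlap did for 11.3% of genes in either direction. Cwc27 averaged 6.12 ± 3.61 FPKM in islet Y16A and 4.50 ± 3.85 in spleen Y16A (log2 change 0.18, adjusted p = 0.835), and 3.90 ± 1.86 in islet WT and 0.791 ± 1.13 in spleen WT (1.40, adjusted p = 0.458). Ipo13 averaged 3.32 ± 0.465 FPKM in islet Y16A and 1.63 ± 0.924 in spleen Y16A (0.45, adjusted p = 0.698), and 1.40 ± 1.13 in islet WT and 1.70 ± 1.94 in spleen WT (-0.22, adjusted p = 0.998). The median change of the 4 tested genes of the list was 0.27 in Y16A origin and 0.90 in WT origin.

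The list named ASAP and PSAP holds splicing regulators that bind the complex, among them Srrm1, which is not a subunit of ASAP or PSAP. Srrm1, a splicing coactivator, was at 26.3, 20.2 and 15.3 FPKM in islet Y16A and at 10.7, 7.32 and 8.61 in spleen Y16A, so the islet values lay above the spleen values, as groups without overlap did for 18.3% of genes in either direction, and the log2 change of 0.79 was not called (SE 0.42, limma adjusted p = 0.328). Among named genes of the lists, the islet Y16A values of Pnn, Ipo13 and Smg6 also lay above those of spleen Y16A, and those of Sap18 and Smg8 below. Genes were named for a small p in this comparison, which favours such separation. Pnn, which encodes pinin, averaged 15.7 ± 1.70 FPKM in islet Y16A and 8.72 ± 2.32 in spleen Y16A (0.48, adjusted p = 0.565). Sap18 averaged 2.52 ± 0.721 FPKM in islet Y16A and 4.67 ± 1.16 in spleen Y16A (-1.01, adjusted p = 0.687). In WT origin the changes were 0.18 for Srrm1, -0.46 for Pnn and -0.36 for Sap18 (adjusted p = 0.919, 0.927 and 0.968). The median of the 5 genes was 0.35 in Y16A origin and -0.36 in WT origin.

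Of 15 genes of nonsense-mediated decay, which destroys mRNA with an early stop codon, 13 were tested, with a median log2 change of -0.16 in Y16A origin and -0.18 in WT origin. Upf3a, a bridge from the complex to the decay machinery, averaged 13.1 ± 3.88 FPKM in islet Y16A and 7.27 ± 5.56 in spleen Y16A (0.73, limma adjusted p = 0.585). The endonuclease gene Smg6 averaged 2.93 ± 1.01 FPKM in islet Y16A and 1.28 ± 0.815 in spleen Y16A (0.51, adjusted p = 0.577). Smg8, a regulator of the kinase SMG1, averaged 2.54 ± 0.325 FPKM in islet Y16A and 4.49 ± 1.55 in spleen Y16A (-0.92, adjusted p = 0.709). In WT origin the changes were -0.97 for Upf3a, -0.52 for Smg6 and -0.67 for Smg8 (adjusted p = 0.791, 0.919 and 0.847).

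The 15 genes of mRNA export through TREX had a median of 0.09 in Y16A origin and 0.14 in WT origin. The export adaptor gene Alyref averaged 92.5 ± 16.1 FPKM in islet Y16A and 65.1 ± 19.6 in spleen Y16A (0.20, limma adjusted p = 0.661). Thoc7 averaged 53.2 ± 9.66 FPKM in islet Y16A and 33.9 ± 11.5 in spleen Y16A (0.35, adjusted p = 0.600), and Chtop 17.0 ± 6.39 in islet Y16A and 10.4 ± 1.65 in spleen Y16A (0.29, adjusted p = 0.678). In WT origin the changes were 0.35 for Alyref, 0.39 for Thoc7 and -0.95 for Chtop (adjusted p = 0.761, 0.793 and 0.663). Eif4a1 and Eif4a2, the helicases of translation initiation related to Eif4a3, had changes of -0.22 and -0.40 in Y16A origin (adjusted p = 0.972 and 0.980) and of -0.55 and -0.48 in WT origin (adjusted p = 0.922 and 0.958).

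**Figure D4:**
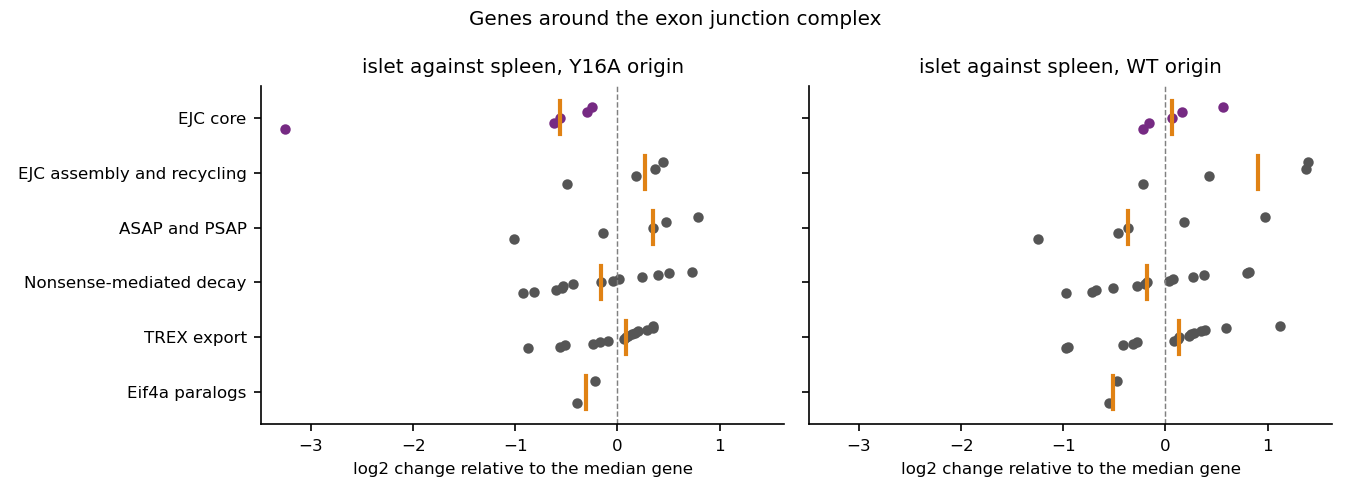
Log2 change of each tested gene (points) in islet against spleen, relative to the median gene (horizontal axes; dashed line at 0), for the 5 core genes and 5 related lists, with Y16A origin in the first panel and WT origin in the second; vertical bars are list medians. One point stands alone at -3.25, Magohb in Y16A origin, and list medians lie between -0.56 and 0.90.

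The genes whose levels were most like those of Magohb over the 12 libraries, among 4203 others with a mean of 5 FPKM or more, were Ifitm1 (Pearson r 0.77 of the log2 values), Neil1 (0.75), Tmem37 (0.74), Bloc1s2 (0.72) and Taf13 (0.72). The 12 points share 6 recipients and 2 tissues, and these values are descriptions. They include the islet Y16A values that led to the choice of Magohb. Of these, the value of islet Y16A 2 lies under 3 fragments by the rough estimate of depth. Ifitm1, an interferon-induced membrane protein gene, was at 75.3, 61.4 and 72.6 FPKM in islet Y16A and at 146, 116 and 154 in islet WT. In spleen it was at 612, 289 and 515 FPKM for Y16A origin and at 730.4, 441 and 266 for WT origin. It thus was low in islet of both origins, unlike Magohb. Neil1, a DNA glycosylase gene, averaged 1.05 FPKM in islet Y16A, 2.82 in islet WT, 8.96 in spleen Y16A and 7.40 in spleen WT. Tmem37, Bloc1s2 and Taf13 were each lowest in islet Y16A 2, the library with the lowest Magohb, at 0.188 FPKM for Tmem37 and 0.325 FPKM for Taf13. Most like Magoh were Trappc6a (0.78), Ifrd1 (0.74), Cirbp (0.74), Cenpx (0.73) and 1190007I07Rik (0.73). No gene was in both lists, which says little about the MAGO copies, since 5 genes taken from 4203 would rarely coincide. Magoh and Magohb themselves correlated at 0.41 over the 12 libraries, with the same islet Y16A values included.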

How the data were processed

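RNA of the 12 libraries was freed with Triton X-100, reverse transcribed, amplified as cDNA and made into Nextera XT libraries, per the labels' protocols. Per the submitters' processing notes, TopHat 1.0.0, Cufflinks and mm9 were used; strand and filters are not given in the sources used here. The authors deposited FPKM per transcript for each library, and a table comparing islet Y16A with islet WT with FPKM, p-values and q-values that the authors deposited. Of 36285 transcripts, 35986 matched a symbol. FPKM was summed per gene, and the 10044 genes that reached 1 FPKM in 3 or more libraries were fitted as log2(FPKM + 1) with limma 3.58.1 (R 4.3.3; trend and robust empirical Bayes, 4 group means, Benjamini-Hochberg adjustment, 0.05). FPKM is not a count, so no count model was used. Depth was estimated from steps between low FPKM values of 8187 single transcripts. The steps were only weakly regular, with a score of 0.22 to 0.35 where 1 is perfect, so depth and fragment numbers are rough. By this estimate 3 fragments correspond to 0.464 to 0.889 FPKM of Magohb, which covers counting error only. The script was tested on simulated data.

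The genes and lists were chosen with earlier results of these data known. Named genes were the 5 core genes, up to 3 per list with the smallest p in islet against spleen of Y16A origin, and the 5 genes most correlated with Magohb and with Magoh. Titles name the same mouse for 1 islet and 1 spleen library, which pairs them; deviations of paired libraries from their group means correlated at -0.03 to 0.08. Alternatives were another pseudocount, no filter, quantile normalization, median centring, plain empirical Bayes, separate transcripts, a mouse block and each library left out.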

Additional observations from a re-analysis of the deposited data

How the results depend on the processing

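Over all alternatives, 0 of 492 tests of the 5 genes (comparisons where Magohb is a description left out) had a limma adjusted p under 0.05. Called genes for Y16A against WT in islet numbered 1 with a pseudocount of 0.1 and 1 with separate transcripts, and 0 to 1 with a library left out, against 0. In spleen the count was 1 with a pseudocount of 0.1, 1 with quantile normalization, 5 with separate transcripts and 0 to 1 with a library left out, against 0. For the difference of the islet against spleen changes it was 1 with separate transcripts and 0 to 1 with a library left out, against 0. None of the 5 genes was among these calls. For the mean of both origins 137 genes were called without the filter, against 225, and 166 to 243 with a library left out. Islet against spleen gave 83 to 135 calls in Y16A origin and 59 to 92 in WT origin with a library left out. With the mouse as a replicate block (duplicateCorrelation) the counts were 134 in Y16A origin, 96 in WT origin and 277 for the mean, against 116, 81 and 225, and no call of the 5 genes changed. Higher and lower calls in Y16A origin were 96 and 20, against 75 and 51 with quantile normalization and 73 and 48 with median centring; in WT origin they were 63 and 18, against 68 and 38 and 73 and 24. For the mean of both origins they were 184 and 41, against 144 and 100 and 148 and 95. The paired difference of Casc3 was -0.40 with median centring, with an exact sign-flip permutation p of 0.0312 (0.125 adjusted over 4 genes). That is the smallest p possible and arises only when all recipients differ in the same direction. The count of 4 of 6 recipients with lower Casc3 in islet thus depends on the scaling. The log2 change of Magohb, not tested, ranged from -3.98 to -2.74 for islet against spleen of Y16A origin and from -3.99 to -2.76 for Y16A against WT in islet, the lowest with a pseudocount of 0.1. Depth limits Magohb in islet Y16A 2, which lies under 3 fragments by the rough estimate of depth.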

Other observations

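Among the genes next to Magohb on chromosome 6, Ybx3, which encodes a cold shock domain protein that binds DNA and RNA, was well expressed. It averaged 77.2 FPKM in islet Y16A, 59.6 in islet WT, 48.4 in spleen Y16A and 46.2 in spleen WT. The nearer neighbours Klra2 and Styk1 stayed at or under 0.624 and 0.966 FPKM in all 12 libraries.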
